A study of Rattus norvegicus with 15 samples.

Results

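Neurog1, Neurod1, Sox2, Pax6 and Kit are genes of the dividing and newly born cells at the base of the olfactory epithelium, the tissue at the back of the nose in which odors are sensed. Their transcripts were followed here as a set of 5 genes, out of 35561 distinct names on an Agilent whole rat genome array, transcripts listed by accession included. The members were chosen by gene name. Of the 6 probes found, 4 carried the current name on the array, namely those of Neurod1, Pax6 and Kit, which has 2. The other 2 genes were listed under older names that RefSeq gives as synonyms, Neurog1 as Neurod3 and Sox2 as RGD1565646_predicted.

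The tissue came from 8 Brown Norway rats, 4 males and 4 females, all 6 weeks old. No rat was described as treated, and no genetic change was described. RNA from nostril A and nostril B of a rat was labeled and hybridized separately, except in male 1, for which there was 1 array, so 15 arrays were analyzed (7 male and 8 female). By the description of the study the rats came from more than 1 supplier. The labels do not give the supplier of each rat, so suppliers were not compared here.

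The olfactory epithelium replaces its neurons throughout life. Horizontal basal cells are a reserve of stem cells that rest on the basal lamina, and globose basal cells above them divide and give rise to neurons. Sox2 and Pax6 are transcription factors of stem and progenitor cells, and in this tissue also of the sustentacular cells that support the neurons. Neurog1 and Neurod1 are basic helix-loop-helix (bHLH) transcription factors that act in turn as progenitors become neurons. Kit is the receptor tyrosine kinase for stem cell factor. It is found on a subset of globose basal cells and also on mast cells and melanocytes.

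The probes are shown because each level below is the level of 1 such sequence, and because the 2 Kit probes are different oligonucleotides. Each has 60 bases, of which the first 30 are given 5′ to 3′ as the array files hold them, in lower case throughout.
Neurog1, probe A_44_P1003847: aagaaaaacgagcatgaaaattcggtttga
Neurod1, probe A_44_P226575: atatgtatttattgtcgttactgcctttgg
Sox2, probe A_44_P506024: gcggcggaaaaccaagacgctcatgaagaa
Pax6, probe A_43_P11650: acacaggctgttggatcttggatctgtgtt
Kit, probe A_44_P240973: gaaagtagaccattattagaacagaggaca
Kit, probe A_44_P1070538: gttctatttacgtgtttgttagagatcctg

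The array files place these probes on rat genome build rn3. The Neurog1 probe lies at chr17:14334008-14334067 and the Neurod1 probe at chr3:62121479-62121538. The Sox2 probe lies at chr2:120914687-120914746 and the Pax6 probe at chr3:91045183-91045242. Kit probe A_44_P240973 lies at chr14:34906341-34906400, and the files give no position for A_44_P1070538. Whether a probe lies in a coding exon or a UTR was not analyzed here.

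Levels are given as the log2 of the scanner's background-corrected signal divided by the median signal of the same array. A probe was called detected where the scanner marked its signal as well above background. All 5 genes were detected on all 15 arrays by at least 1 probe, and no member probe was saturated on any array. Kit probe A_44_P1070538 was the exception among the 6 probes, with detection on 9 of 15 arrays, 2 of 7 male and 7 of 8 female. Probes differ in how strongly they bind, so the level of a probe is compared between samples and not with that of another probe.

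The 15 arrays lay on 4 slides, and the slides were not balanced over the sexes. Males 1 and 2 were on slide 1, together with array A of female 3. Array B of this female was on slide 2 with female 4. Males 5 and 6 filled slide 3, and females 7 and 8 filled slide 4. Slide 1, which carried 3 male arrays and 1 female array, is therefore the one slide on which the sexes can be set against each other. The median signal of an array was 57.4 to 83.4 scanner units. Markers of the tissue were present, with 9 of 10 mature olfactory neuron genes and all 11 immature neuron genes on the array detected on at least 11 arrays.

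Neurog1, which commits globose basal cells to the neuronal fate, had mean levels of 2.95, 3.05, 2.78 and 2.39 in males 1, 2, 5 and 6. In females 3, 4, 7 and 8 the levels were 2.81, 2.89, 3.00 and 2.98. Male 6 was the lowest rat, and the sexes overlapped.

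Neurod1, which acts after Neurog1 in the differentiating neuron, had levels of 3.31, 3.37, 3.37 and 3.08 in males 1, 2, 5 and 6. The female levels were 3.15, 3.10, 3.49 and 3.43 in the same order of rats 3, 4, 7 and 8. Male 6 was again the lowest rat, with female 4 next to it.

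Sox2, a factor that keeps stem and progenitor cells undifferentiated, had levels of 5.80, 5.89, 5.42 and 5.57 in males 1, 2, 5 and 6. In females 3, 4, 7 and 8 it stood at 6.00, 6.01, 5.93 and 5.93. The 4 female rats lay close together and above all 4 males, of which males 5 and 6 were lowest.

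Pax6, a paired-box factor needed for the olfactory placode to form, had levels of 5.31, 5.29, 5.36 and 5.44 in males 1, 2, 5 and 6. The 4 females had 5.44, 5.33, 5.37 and 5.44. No rat stood apart, and the range over the 8 rats was 0.16 log2 units, or 0.53 with normexp background correction, a model of signal and background that replaces the scanner's own.

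Kit was read by 2 dim probes. Probe A_44_P240973 had levels of -1.55, -1.51, -1.42 and -1.65 in males 1, 2, 5 and 6, and of -1.49, -1.12, -1.16 and -1.24 in females 3, 4, 7 and 8. Females 4, 7 and 8 lay above all males, whereas female 3 did not. Its nostrils, on different slides, read -1.86 for A and -1.13 for B, the widest gap between nostrils of a rat for this probe.

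Probe A_44_P1070538 had levels of -2.69, -1.85 and -2.69 in males 1, 2 and 5. Both arrays of male 6 were at the floor of -3.32, which stands for 0.1 of the array median, so its level is an upper bound. The females read -1.92, -1.85, -2.58 and -2.37. Male 2 and females 3 and 4, on slides 1 and 2, were highest.

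**Figure D1:**
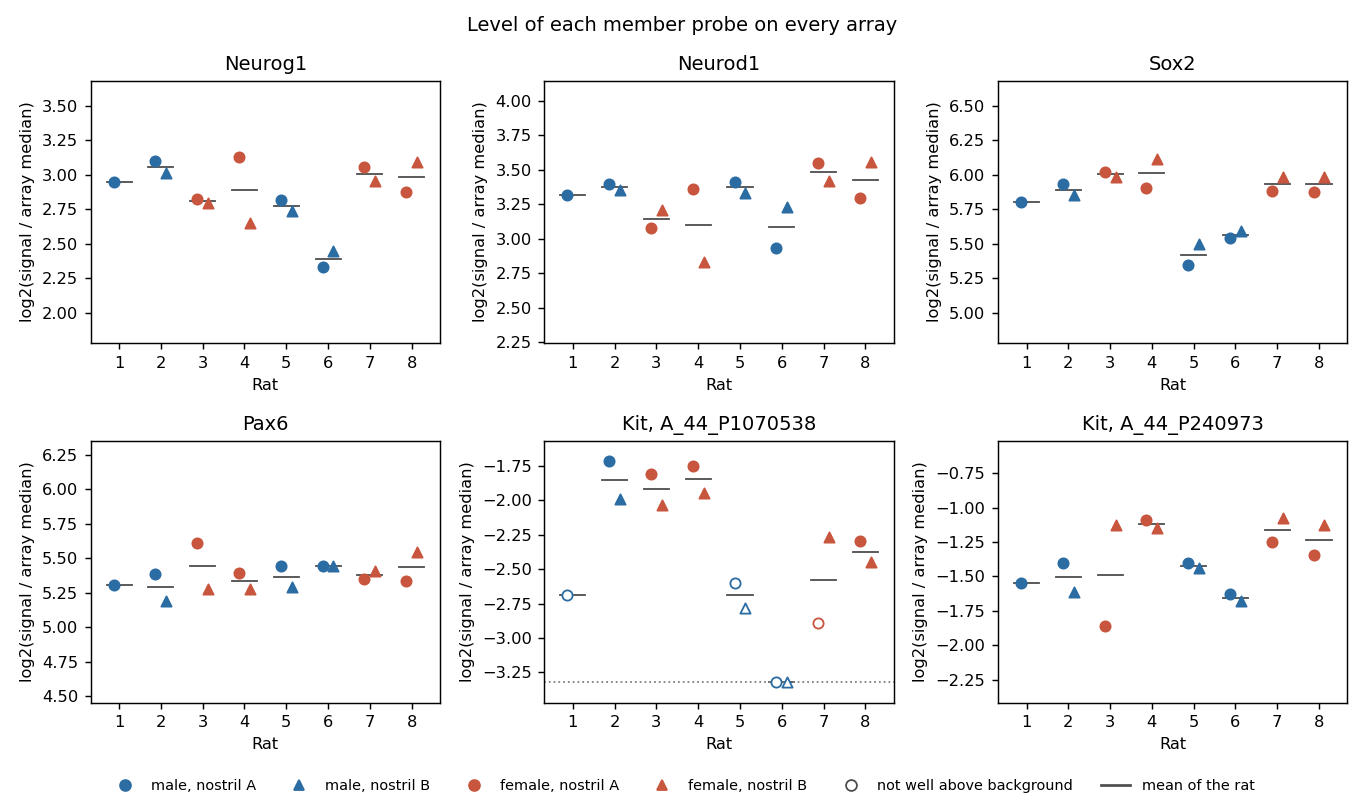
Level of each member probe, as log2 of the signal over the array median, on the 15 arrays by rat. Circles are nostril A and triangles nostril B, blue is male and red female, open symbols were not well above background, short lines are the means of a rat, and the dotted line is the floor at -3.32. Each panel spans the same number of log2 units. Sox2 of males 5 and 6 lies below that of all other rats, and both nostrils of male 6 are at the floor for Kit probe A_44_P1070538.

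The sexes were compared with limma on the means of 4 male and 4 female rats, to ask whether these genes differ between males and females. None of the 6 member probes passed a false discovery rate of 1% over all 27625 probes tested, among which 12 did (0.0434%). At an unadjusted p under 0.05, 2 of 6 passed, Sox2 and Kit probe A_44_P240973, beside 17.1% of all probes.

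Sox2 averaged 5.67 ± 0.22 in males and 5.97 ± 0.04 in females (SD, n = 4 rats each). It was 0.30 ± 0.10 (SE) log2 units higher in females, a 1.23-fold difference (limma, 95% interval 0.08 to 0.52, adjusted p = 0.181). It was the 1 member probe of 6 whose sexes did not overlap, which was so for 11.3% of all probes tested. The mean of slide 3, which held 2 of the 4 males, was 5.49, and the means of slides 1, 2 and 4 were 5.90, 6.00 and 5.93. On slide 1 the female array exceeded the mean of males 1 and 2 by 0.17, and with slide as a block the difference was 0.16, a value that rests on this 1 female array. The part of the slide in the sex difference cannot be told apart beyond slide 1.

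Kit probe A_44_P240973 averaged -1.53 ± 0.10 in males and -1.25 ± 0.17 in females (SD, n = 4 rats each). The difference was 0.28 ± 0.12 log2 units (limma, 95% interval 0.004 to 0.55, adjusted p = 0.287). On slide 1 its direction was opposite, with female 3A minus the males at -0.33, and with slide as a block, which again rests on this array, it was -0.34. The second Kit probe met the filter for testing, detection on 7 arrays, through the females (7 of 8 arrays, against 2 of 7 in males). Its fitted difference of 0.46 did not pass (limma, adjusted p = 0.465) and is not a measured size. Males 1, 5 and 6 were not well above background on any array, and male 6 was at the floor. Without male 6 the difference was 0.23 and without male 2 it was 0.72.

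For the other 3 genes the intervals spanned 0. Neurog1 differed by 0.13 ± 0.13 (limma, 95% interval -0.17 to 0.43, adjusted p = 0.649), and without male 6 by -0.004. Neurod1 differed by 0.003 ± 0.11 (limma, 95% interval -0.24 to 0.25, adjusted p = 0.992). Pax6 differed by 0.05 ± 0.06 (limma, 95% interval -0.08 to 0.18, adjusted p = 0.708), and with slide as a block by 0.32. That value rests on array 3A, at 5.61 the highest of the 15, while nostril B of the same rat read 5.28. The median size of the sex difference over all probes tested was 0.12.

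**Figure D2:**
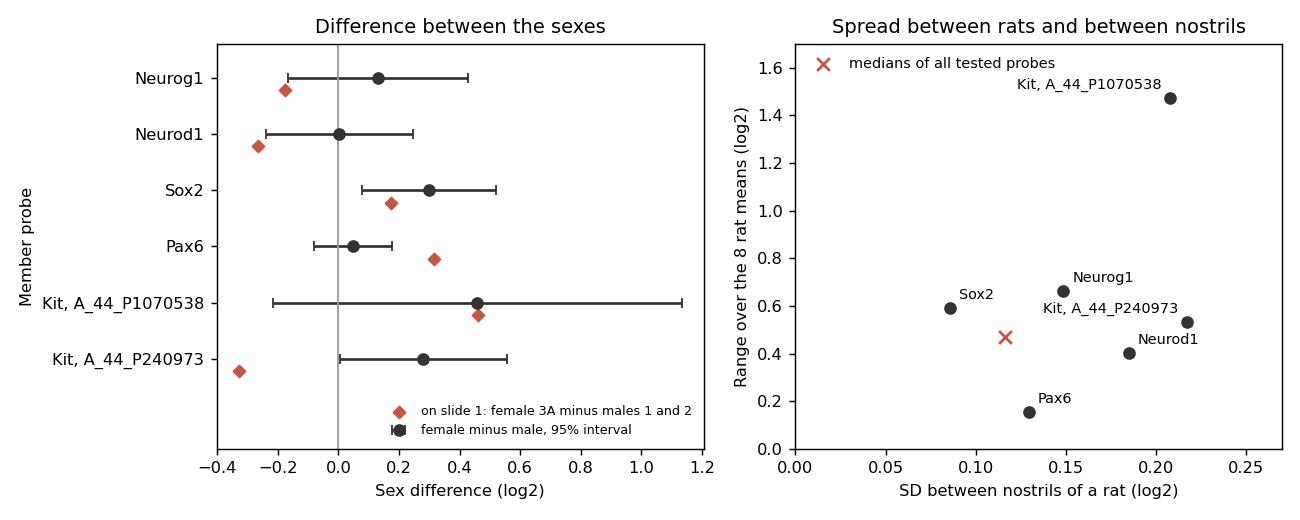
Left, sex difference of each member probe in log2 units, female minus male, with its 95% interval from limma (n = 4 rats per sex); diamonds give the difference within slide 1. Right, range of the 8 rat means against the SD between nostrils of a rat, with the medians of all tested probes as a cross. The intervals of Sox2 and Kit probe A_44_P240973 lie above 0, and the slide 1 values of Neurog1, Neurod1 and Kit probe A_44_P240973 lie below 0.

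Rats of the same sex were compared next, with the nostrils as the error, to ask whether animals of a strain differ in these genes. Such a difference can include that between suppliers, which was not tested. Of the 6 member probes, 0 passed 1%, beside 768 of 27574 probes (2.79%). At an unadjusted p under 0.05, 3 of 6 passed, Neurog1, Sox2 and Kit probe A_44_P1070538, beside 37.1% of all probes. The Kit probe was detected on 2 of 7 male arrays, so its pass rests in part on undetected values.

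Kit probe A_44_P1070538 ranged over 1.47 log2 units among males and 0.73 among females, with an SD between nostrils of 0.21 (limma F-test within sex, adjusted p = 0.0245). Neither the male range nor this SD is a measured size. The probe met the filter through the females, and males 1, 5 and 6 were not well above background on any array. Both arrays of male 6 were at the floor, which sets its nostril difference to 0. With normexp the range of this probe over the 8 rats was 0.38 (limma F-test, adjusted p = 0.786). Sox2 ranged over 0.47 units among males and 0.08 among females, with an SD between nostrils of 0.09 (limma F-test within sex, adjusted p = 0.0372). Neurog1 ranged over 0.66 units among males, from male 6 to male 2, and over 0.19 among females, with an SD between nostrils of 0.15 (limma F-test within sex, adjusted p = 0.0639). The median SD between nostrils of all probes tested was 0.12.

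Over all 8 rats, and so with the sex difference included, the ranges of these 3 probes were 1.47, 0.59 and 0.66, beside a median of 0.47 over all probes tested. The value of 1.47 rests on the floor of male 6. Without male 6 the range of Kit probe A_44_P1070538 was 0.84 and that of Neurog1 was 0.28.

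Over the 8 rats Kit probe A_44_P240973 ranged over 0.53 units, Neurod1 over 0.40 and Pax6 over 0.16. Within sex they did not pass (limma F-test, adjusted p = 0.676, 0.237 and 0.80). In the fit with slide as a block, which compares rats that share a slide, 0 of 6 passed 1%, and 1 of 27574 probes did (0.00363%). At an unadjusted p under 0.05 that fit called 1 of 6, Kit probe A_44_P1070538, and 17.1% of all probes. For this probe males 5 and 6, which shared slide 3, were not well above background on any array. The call thus rests in part on undetected values.

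The nostrils were compared in the 7 rats with 2 arrays, with the rat as a block. No member probe differed between nostril B and nostril A (0 of 6 at 1% and 0 of 6 at an unadjusted p under 0.05, limma), and of all probes 0 (0%) and 1623 (5.89%) did. The largest mean difference was 0.11 ± 0.12 (SE, limma), for Kit probe A_44_P240973, and it was 0.007 without female 3, whose nostrils lay on different slides. The nostril difference did not pass the test of a difference between the sexes for any member probe either (0 of 6 at both thresholds), beside 0 (0%) and 2.36% of all probes.

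Although no member passed the test between nostrils, the nostril differences of 2 of them resembled each other. Neurog1 read 3.13 in nostril A and 2.65 in nostril B of female 4, and Neurod1 read 3.36 and 2.83 there. These were the widest gaps between nostrils for both genes. In female 8 both genes were higher in nostril B, by 0.21 for Neurog1 and 0.26 for Neurod1, and in male 6 by 0.12 and 0.29.

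In males 2 and 5 and female 7 both were lower in nostril B, by 0.13 or less. The signs matched in 6 of 7 rats, and female 3 was the exception (-0.03 and 0.13).

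Over the 7 rats the nostril differences of Neurog1 and Neurod1 correlated at r = 0.97 (exact permutation test, two-sided, p = 0.00159, adjusted p = 0.0159 over the 10 pairs of members) and at rho = 0.93 (exact permutation test, p = 0.00675, adjusted p = 0.0675). Without the 2 rats farthest from the median Neurog1 difference r was 0.96. Without female 4 r was 0.91, without female 3 it was 0.98 and without female 7 it was 0.97, and the adjusted p was then over 0.05, the threshold used for the pairs in place of the 1% used for single probes (exact permutation test, adjusted p = 0.111, 0.0556 and 0.0556). In 6 of these 7 rats, all but female 3, both nostrils lay on 1 slide.

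Of the 27573 probes other than Neurog1, 7 followed it over the 7 nostril differences at least as closely as Neurod1 did (0.0254%), Neurod1 itself counted. In the same way 7 followed Neurod1 at least as closely as Neurog1 did, Neurog1 itself counted. The other 9 pairs of members had r between -0.52 and 0.42 (exact permutation test, adjusted p = 0.623 each), with Neurog1 and Kit at 0.25 and Sox2 and Pax6 at 0.42.

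Gene lists of the same tissue are given beside this as a description. The mean nostril difference of 12 globose basal cell and neuron progenitor genes had r = 0.94 with Neurod1 and 0.88 with Neurog1, and that of 19 Notch and bHLH genes had 0.95 and 0.99. The 8 horizontal basal cell genes had -0.52 and -0.63. Over the 8 rat means the globose and Notch lists had r = 0.26 and 0.33 with Neurog1 and 0.71 and 0.61 with Neurod1. In female 4 the mean differences of these lists, nostril B minus A, were -0.22 and -0.24. The 12 partners and targets of Sox2 and Pax6 had -0.33 there and the 9 mature olfactory neuron genes 0.03. Over the 7 rats the mature neuron genes had r = 0.52 with Neurog1 and 0.57 with Neurod1, 11 immature neuron genes had 0.67 and 0.74, and 7 bone genes had 0.71 and 0.69. In female 4, 6 olfactory ensheathing cell genes had -1.41 and the bone genes -1.02, and the part of these cell types in the result was not tested. Fabp7 is on both the ensheathing cell list and the list of partners and targets, so the means of those lists share a gene.

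**Figure D3:**
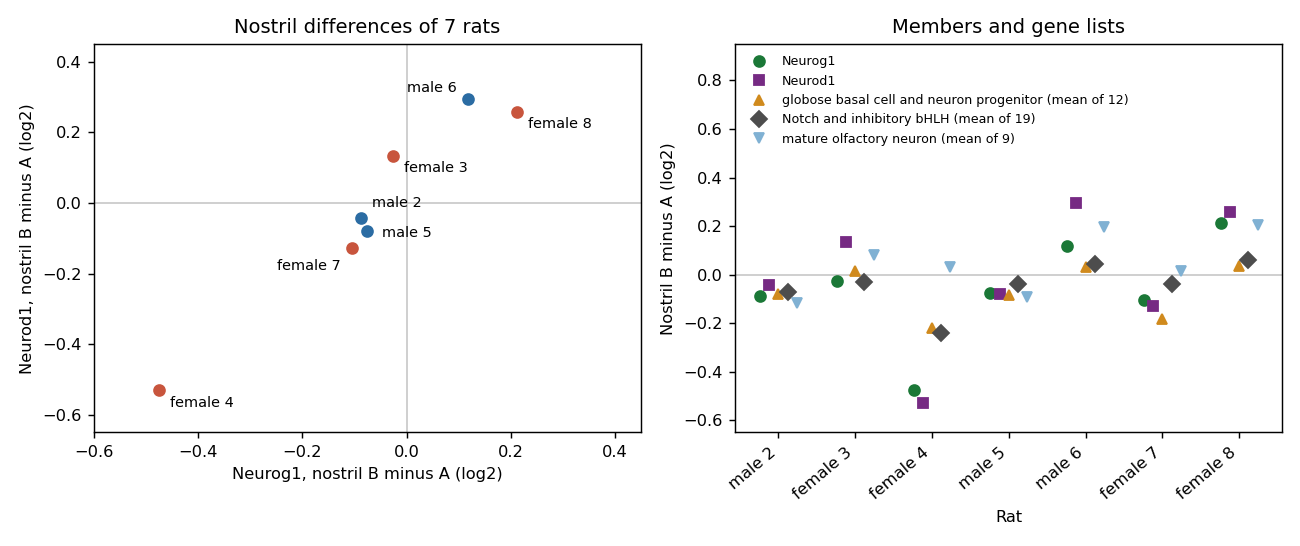
Left, nostril B minus nostril A in log2 units for Neurog1 and Neurod1, 1 point for each of the 7 rats with 2 arrays (blue male, red female). Right, the same differences by rat beside the means of 3 gene lists, slightly displaced sideways. Female 4 lies lowest for both genes, at -0.47 and -0.53.

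The same pairs were then compared between rats. Over the 8 rat means, Neurog1 and Neurod1 correlated at r = 0.67 (exact permutation test, two-sided, p = 0.0419, adjusted p = 0.403 over 10 pairs) and rho = 0.62 (exact permutation test, p = 0.115, adjusted p = 0.575). Without the 2 rats farthest from the median r was 0.82, and without male 6 it was 0.52. After the levels were centered on the mean of their slide r was 0.93, a value for which no p is given because rats that share a slide then mirror each other.

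None of the 10 pairs passed the correction over rats. The pair of Neurog1 and Sox2 had r = 0.60 (exact permutation test, adjusted p = 0.403), which turned to -0.55 without the 2 rats farthest from the median of Neurog1. Neurog1 and Pax6 had r = -0.55 (exact permutation test, adjusted p = 0.403). The remaining 7 pairs had r between -0.25 and 0.53.

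The sequences before the starts of Neurog1 and Neurod1 are shown because the nostril differences of these 2 genes had the highest r of the 10 pairs. All 5 genes had an entry in the RefSeq promoter table of build GRCr8, and the 250 bases upstream of the start are given 5′ to 3′ on the strand of the gene. The window of Neurog1 is chr17:8367846-8368095 on the plus strand and that of Neurod1 is chr3:84770455-84770704 on the minus strand. Capitals mark matches to the E-box CANNTG, to the octamer ATGCAAAT and to ACAAT, the core of sites bound by Sox proteins, on either strand.
Neurog1: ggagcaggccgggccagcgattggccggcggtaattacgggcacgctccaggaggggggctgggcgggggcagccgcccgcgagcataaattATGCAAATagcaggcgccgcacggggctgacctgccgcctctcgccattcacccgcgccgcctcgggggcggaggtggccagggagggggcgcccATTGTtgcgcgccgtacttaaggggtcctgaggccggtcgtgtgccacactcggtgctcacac
Neurod1: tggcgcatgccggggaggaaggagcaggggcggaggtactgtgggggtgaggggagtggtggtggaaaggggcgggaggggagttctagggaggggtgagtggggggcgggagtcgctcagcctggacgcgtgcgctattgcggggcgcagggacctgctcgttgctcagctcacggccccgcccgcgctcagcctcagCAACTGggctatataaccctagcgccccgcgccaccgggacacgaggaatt

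The octamer ATGCAAAT began at -158 from the start of Neurog1, and 1.56% of the 33469 rat promoters of the same length hold it on either strand. ATTGT, the reverse complement of ACAAT, began at -63 there and at -220 from the start of Pax6, and 30.02% of promoters hold this motif. An E-box, the kind of site that bHLH factors bind, began at -51 from the start of Neurod1, -65 of Sox2 and -13 of Kit, and 65.5% of promoters hold one. No E-box letters were in the windows of Neurog1 and Pax6. A match is given as letters in the window and not as a bound site.

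Genes most like each member were named by Pearson's r over the 15 arrays, among 10011 genes with a symbol, as a description. Neurog1 was nearest to Ush3a (r = 0.93), the clarin gene of a form of Usher syndrome, followed by Rqcd1, the olfactory receptors Olr1690 and Olr1345, and the ephrin receptor Epha3. Neurod1 was nearest to Cacnb1 (r = 0.85), a calcium channel subunit, followed by Cyp2c13, Bmper, Myog and Ush3a. Ush3a was thus the 1 gene named for both, and its r within slides was 0.89 with Neurog1 and 0.91 with Neurod1.

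Sox2 was nearest to Jag1 (r = 0.94), a ligand of Notch receptors, followed by Rheb, Mtfmt, Spag9 and Sqle. For Sox2, 6.87% of the 10011 genes had r over 0.7, and within slides the 5 named genes fell to between 0.55 and 0.66. Pax6 was nearest to Flcn (r = 0.82), folliculin, followed by Ddx46, Numa1, Ppp3cc and Hsd11b2, with 0.84 to 0.90 within slides.

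The Kit probes had different neighbors. Probe A_44_P240973 was nearest to Orc3l (r = 0.93), a subunit of the origin recognition complex, followed by Alg5, Rnpep, Ei24 and Khdrbs1. Within slides these named genes fell to between 0.53 and 0.76. Probe A_44_P1070538 was nearest to Sept5 (r = 0.92), followed by Notch4, Kif5a, Dag1 and Usp53, which fell to between 0.52 and 0.81 within slides. This probe was detected on 9 of 15 arrays. The arrays share their slides and their scaling, and nothing about shared control of the genes was tested.

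Other genes of the lineage were described by counts, each gene by its most often detected probe. Their ranges are over all 8 rats, whereas the F-test compares rats of 1 sex. Of the 17 globose basal cell and neuron progenitor genes, 15 were on the array and 12 were tested, and none passed 1% between the sexes, rats or nostrils. Their median sex difference was -0.16, beside 0.01 over all probes. The widest ranges over rats were 1.20 for Neurod2 and 1.03 for Nhlh1, beside a median of 0.51 for the list. Both were dim, with Neurod2 detected on 7 of 15 arrays and Nhlh1 on 9. Neurod4, another bHLH gene of the family, was not detected on any array.

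Of the 9 horizontal basal cell genes, 8 were tested, and none passed 1% in any comparison. Tp63, which keeps these cells as stem cells, ranged over 0.83 units, and Cd44 over 0.81. Of the 15 cell cycle genes, 2 differed between rats at 1%, Mcm5, part of the helicase that opens replication origins (range 1.03, limma F-test, adjusted p = 0.00838), and Ccnd1, cyclin D1 (range 0.58, limma F-test, adjusted p = 0.00534), beside 2.79% of all probes. With slide as a block, a fit that compares only rats sharing a slide, neither passed 1% (limma F-test, adjusted p = 0.428 and 0.221). That fit called 0.00363% of all probes, and the part of the slide in these calls was not tested. The median sex difference of the cell cycle genes was -0.20.

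Of the 21 Notch and bHLH genes, 19 were tested and 1 differed between rats, beside 2.79% of all probes. This was Tcf12, a general partner of bHLH factors (range 0.79, limma F-test, adjusted p = 0.0026). It did not pass with slide as a block (limma F-test, adjusted p = 0.278), a fit that called 0.00363% of all probes. Hes5 and Hes1, repressors that Notch signaling induces, had ranges of 1.78 and 0.80 but did not pass. Of 16 tested genes of Kit ligand and signaling none passed, and Gab2 and Stat5a had the widest ranges, 0.55 each. Of 12 tested partners and targets of Sox2 and Pax6 none passed, with Pou3f3 at 1.75 and Fabp7 at 1.56. Pou3f3 was dim, detected on 12 of 15 arrays, with an SD between nostrils of 0.85.

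Markers of other cells that could carry these genes are given beside the member values. Kit also marks mast cells, and all 11 mast cell genes on the array were detected on at least 11 arrays. Their mean level was 1.54 to 2.27 in males and 1.84 to 2.45 in females, and 2 of them, Mcpt8 and Fcer1a, differed between rats (limma F-test, adjusted p = 0.00688 and 0.00926), beside 2.79% of all probes. With slide as a block neither passed 1% (limma F-test, adjusted p = 0.171 and 0.0831), in a fit that called 0.00363% of all probes. Male 6, the lowest rat for both Kit probes, had 2.27, the highest male value. Of 6 melanocyte genes on the array, 3 were tested, and Tyrp1 and Slc45a2 were not detected on any array. The part of these cells in the Kit levels was not tested.

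Sox2 and Pax6 are also expressed by sustentacular cells. The mean level of 8 sustentacular genes was 8.36 to 8.54 in males and 8.52 to 8.66 in females, with a median sex difference of 0.11. Of the 8, Ugt2a1, Krt8 and Cyp2g1 had sex differences of 0.43, 0.35 and 0.31 (limma, adjusted p = 0.0825, 0.0727 and 0.0982), beside 0.30 for Sox2. The other 5 had differences between -0.05 (Muc1) and 0.11, and the part of sustentacular cells in the Sox2 difference was not tested. None of them passed 1%, with Ugt2a1 and Muc1 ranging over 0.64 and 0.60. Neuron markers had median ranges of 0.40 for 11 immature genes (Dpysl5 0.54 and Gng8 0.55 widest) and 0.38 for 9 mature ones (S100a5 0.84 and Gnal 0.50 widest), and none passed.

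Blood genes had the widest median range of the 16 lists, 3.59. Their mean level was 5.20 to 7.42 in males, with male 6 highest, and 3.85 to 6.59 in females, and 2 of 4 tested, Hbb and Alas2, differed between rats, beside 2.79% of all probes (limma F-test, adjusted p = 0.00181 and 0.000792). With slide as a block neither passed 1% (limma F-test, adjusted p = 0.0779 and 0.0529), in a fit that called 0.00363% of all probes. None of the genes of the remaining lists passed 1%, with median ranges of 0.68 for Bowman gland (Obp1f 7.07 and Obp3 5.57 widest), 1.52 for olfactory ensheathing cells (Gfap 1.81), 1.23 for skeletal muscle (Tnnt3 2.66 and Tnnc2 1.23), 1.31 for bone (Col1a1 1.99 and Ibsp 1.83) and 1.06 for melanocytes (Pmel 1.25 and Mitf 1.06). Tnnt3 was dim, detected on 12 of 15 arrays, with an SD between nostrils of 0.97. With bulk tissue, fewer cells of a type and less RNA per cell cannot be told apart. Whether the cells of these lists bear on the low Neurog1 and Sox2 of males 5 and 6 was not tested.

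**Figure D4:**
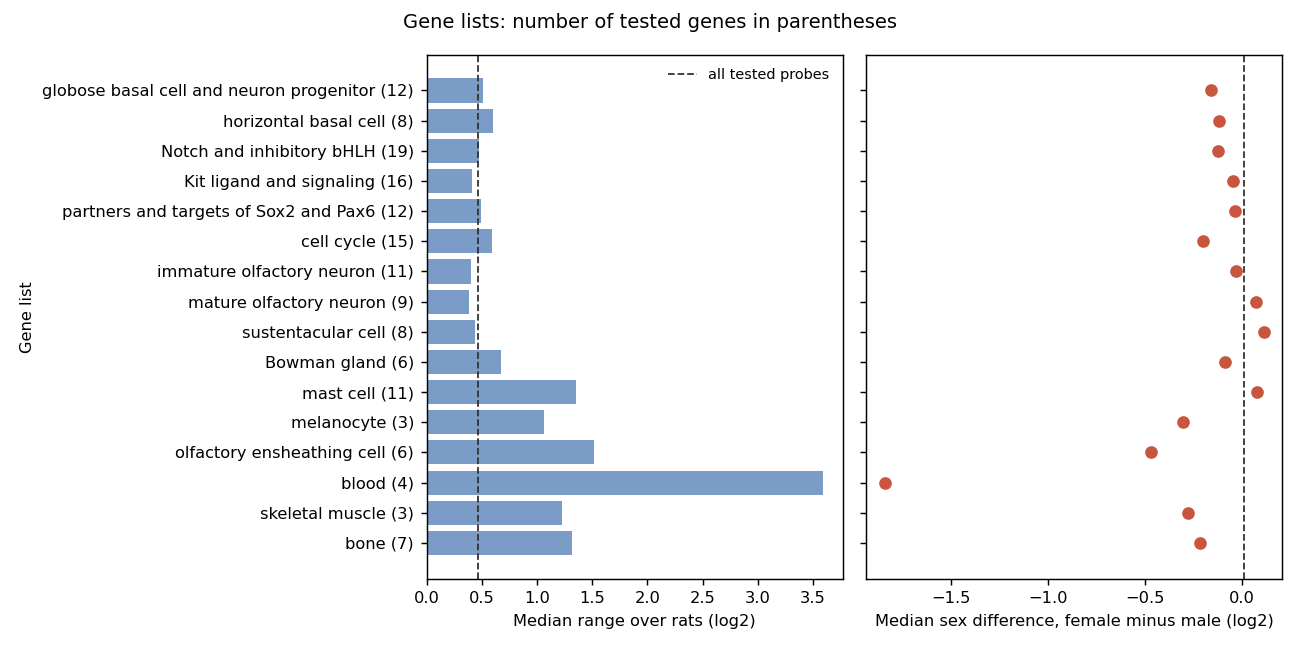
Gene lists with their number of tested genes. Left, bars give the median range over the 8 rats in log2 units; right, points give the median sex difference, female minus male. Dashed lines are the medians of all tested probes (0.47 and 0.01). Blood genes have the widest median range, 3.59, and the lowest median sex difference, -1.84.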

How the data were processed

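The deposited scanner files hold signal intensity per spot on a linear scale, background-subtracted by the authors' Agilent Feature Extraction 9.5. The deposited ratio table, used as an alternative, holds signal over the array median and then over the probe's median over arrays (all 18872 bright single-spot probes came within 2% of that). Here outlier spots were dropped, spots of a probe averaged, signals divided by the array median, values under 0.1 raised to it and log2 taken. Probes detected on at least 7 of 15 arrays were tested with limma 3.58.1 (R 4.3.3) and adjusted over all of them by Benjamini-Hochberg; the fits were tested on simulated data. The rat was the unit for sex, with nostrils averaged. Alternatives were scaling to the 75th percentile, quantile normalization, normexp (offset 50), floor, filters, detection call, unit, slide, ratio table and leaving out each rat. Correlations used exact permutation tests, with a threshold of 0.05 on the adjusted p (Python 3.11, numpy 2.4.6). Gene names are those of the array files, with RefSeq synonyms. Named were every member probe, the 5 genes most like each and, per list, genes past 1% or the 2 of widest range, except that 1 gene is not reported here; Neurod4, Krt8, Cyp2g1, Tyrp1 and Slc45a2 were added after their values were seen. Members and lists were chosen with earlier results of these data known. The number of rats limits the precision.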

Additional observations from a re-analysis of the deposited data

How the results depend on the processing

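Of 417 values recomputed under an alternative, 388 kept their direction and their side of the threshold, among them all counts of member probes past 1% between sexes, rats and nostrils, which were 0 throughout. That share does not measure how stable the sizes are. A lower floor or another filter could not move the sex difference of a bright gene, such as Neurog1 at 0.13. A range over rats has no direction, and that of Pax6 counted as kept at 0.16 and, with normexp, at 0.53. The sex difference of Neurod1, 0.003, turned to -0.025 with scaling to the 75th percentile, -0.018 with quantile normalization, -0.012 with normexp, -0.27 with slide as a fixed block and -0.10 with slide as a random block, and ranged from -0.065 to 0.067 with a rat left out. With slide as a fixed block, which compares the sexes on slide 1 alone, Neurog1 was -0.20 and Kit probe A_44_P240973 -0.34, and Pax6 moved from 0.05 to 0.32, each resting on 1 female array. With a rat left out Neurog1 ranged from -0.0040 to 0.22. With normexp the sex difference of Pax6 was -0.022, those of the Kit probes were 0.10 each, and the nostril differences were -0.044 for Sox2 and 0.013 for Kit probe A_44_P1070538. The latter was 0.021 with a floor of 0.01 and 0.021 in the authors' ratio table. With a rat left out the nostril difference ranged from -0.11 to 0.0054 for Neurog1 and from -0.065 to 0.072 for Neurod1. With normexp the ranges over rats were 0.38 and 0.27 for the Kit probes and 0.53 to 0.70 for the other 4 genes. The cause of these moves was not tested.

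Among the 10 pairs, at an adjusted p under 0.05, 1 passed over nostril differences (0 at 1%), 2 did with normexp (Neurog1 with Pax6 as well), and 0 to 1 with a rat left out. Over rats 0 passed, but 7 did after centering on the slide mean, where rats of a slide mirror each other by construction and the test does not hold. Kit probe A_44_P1070538 was positive and significant on 15 arrays, against 9 well above background. No paired analysis was possible because the sexes share no rat; this holds for the sexes, and the nostrils were compared with the rat as a block. The signal over background limits the dim Kit probes, 4 rats per sex limit the comparison of the sexes, and 7 rats limit that of the nostrils.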
